A study of Mus musculus with 30 samples.

Results

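The metallothioneins Mt1, Mt2 and Mt3, the metal-responsive transcription factor Mtf1, the zinc exporter Slc30a1 and the zinc importer Slc39a14 were examined in 4 tissues of mice lacking myotubularin. These 6 genes were taken by symbol from the 36103 genes of the count table. Mt1 and Mt2 were chosen by their measured values, because both were higher in gastrocnemius of the knock-out mice and Mt1 was lower in their heart. Their values in every contrast that uses gastrocnemius or heart libraries are therefore described with no test. No measured value was given as the reason for choosing the other 4. They and the gene lists used below were still chosen with earlier results of these data known, which limits their tests. RNA was sequenced from whole liver, heart, diaphragm and gastrocnemius of Mtm1-/y males, which carry a knock-out of the X-linked gene Mtm1 in all cells, and of wild-type (WT) male littermates. All mice were untreated, 5 weeks old and bred on a pure 129Pas background. Gastrocnemius and heart had 4 WT and 4 Mtm1-/y libraries each, diaphragm had 4 WT and 3 Mtm1-/y, and liver had 3 WT and 4 Mtm1-/y, giving 30 libraries. The labels do not say which libraries of different tissues came from 1 animal.

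Metallothioneins are small cysteine-rich proteins that bind zinc and copper ions and buffer free zinc in the cell. Mt1 and Mt2 are made in most tissues and are among the genes most readily induced by zinc, cadmium, glucocorticoids and inflammatory cytokines, and liver is a tissue known for a large and variable metallothionein response. Mt3 is best known from brain and Mt4 from stratified epithelium. When free zinc rises, MTF-1, the protein of Mtf1, binds metal response elements in the promoters of Mt1, Mt2 and Slc30a1. ZnT1, the protein of Slc30a1, carries zinc out of the cell across the plasma membrane. ZIP14, the protein of Slc39a14, carries zinc and iron into the cell and is abundant in hepatocytes.

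The 3 metallothionein members lie in 1 cluster with Mt4 on the plus strand of chromosome 8 (mm10), in the order Mt4, Mt3, Mt2, Mt1. Mt4 spans chr8:94137197-94139031, Mt3 chr8:94152607-94154146, Mt2 chr8:94172664-94173568 and Mt1 chr8:94179082-94180327, so that the cluster covers 43131 bases and only 5513 bases separate Mt2 from Mt1. Mtf1 lies at chr4:124802104-124849800 on the plus strand, Slc30a1 at chr1:191906767-191913247 on the plus strand and Slc39a14 at chr14:70303469-70351425 on the minus strand. The RefSeq promoter windows of the genes below (mm10, 250 bases before to 50 after the annotated start, plus strand, 5′ to 3′) are shown for Mt1, Mt2 and Slc30a1 because they are textbook targets of MTF-1, and for Mt3 because it lies in the same cluster and passed the test in gastrocnemius. Capitals mark each match to the metal response element core, searched as TGCACNC and as TGCGCNC on both strands, 2 patterns that cannot match at the same position of a strand.
Mt1, chr8:94178839-94179138: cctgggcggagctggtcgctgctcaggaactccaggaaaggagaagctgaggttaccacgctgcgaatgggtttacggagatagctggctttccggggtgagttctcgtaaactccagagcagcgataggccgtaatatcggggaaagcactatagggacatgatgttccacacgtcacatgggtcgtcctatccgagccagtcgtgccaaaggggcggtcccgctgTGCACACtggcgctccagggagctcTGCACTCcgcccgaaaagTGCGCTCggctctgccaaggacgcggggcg
Mt2, chr8:94172368-94172667: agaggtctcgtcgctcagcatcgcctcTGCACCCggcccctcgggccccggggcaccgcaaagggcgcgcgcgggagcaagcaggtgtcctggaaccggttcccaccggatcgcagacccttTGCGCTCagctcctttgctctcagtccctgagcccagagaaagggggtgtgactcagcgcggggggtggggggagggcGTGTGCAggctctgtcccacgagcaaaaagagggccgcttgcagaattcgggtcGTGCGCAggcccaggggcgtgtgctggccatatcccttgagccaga
Mt3, chr8:94152357-94152656: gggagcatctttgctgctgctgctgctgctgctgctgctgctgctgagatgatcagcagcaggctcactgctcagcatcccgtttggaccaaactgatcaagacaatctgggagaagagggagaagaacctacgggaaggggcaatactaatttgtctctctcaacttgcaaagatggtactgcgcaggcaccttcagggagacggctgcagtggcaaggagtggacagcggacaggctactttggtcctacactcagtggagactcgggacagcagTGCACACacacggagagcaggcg
Slc30a1, chr1:191906531-191906830: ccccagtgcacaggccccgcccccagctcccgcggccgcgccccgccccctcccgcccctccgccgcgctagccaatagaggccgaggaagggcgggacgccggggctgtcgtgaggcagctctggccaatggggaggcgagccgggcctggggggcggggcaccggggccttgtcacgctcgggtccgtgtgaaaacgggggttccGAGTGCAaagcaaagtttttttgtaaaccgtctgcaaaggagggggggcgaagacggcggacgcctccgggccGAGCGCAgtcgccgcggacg
The Mt2 window held 4 matches, the Mt1 window 3, the Slc30a1 window 2 and the Mt3 window 1. The window of Mt4 (chr8:94136954-94137253) held 1 match and that of Mtf1 (chr4:124802299-124802598) held 0. The RefSeq starts of the windows can differ from the starts of the gene spans given above. The Mtf1 window lies wholly inside its gene span, so the bases before the start of that span were not searched. The Mt2 window ends just past the start of its span. Of 32851 promoter windows of this length, 25.7% held at least 1 site, 6.14% at least 2, 1.31% at least 3 and 0.295% at least 4. Overlapping matches are counted as 1 site in these shares, which leaves the counts given for the windows above unchanged. Taken singly, TGCACNC was in 12.6% of the windows and TGCGCNC in 15.4%. A further pair of annotated Mt1 transcripts starts 73 and 103 bases past the end of the Mt1 window, so the bases just before those starts lie partly outside it.

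Totals ranged from 24873817 to 44289343 counted reads per library. Levels are given as CPM, the counts scaled to a common library size, after TMM scaling over all libraries unless stated otherwise, and group values as mean ± SD. Mtm1, the targeted gene, ranged from 3.49 to 8.19 CPM across the Mtm1-/y libraries and from 15.9 to 26.9 CPM across the WT libraries, so that no Mtm1-/y library reached a WT level. It passed the test in gastrocnemius, diaphragm and heart (edgeR adjusted p = 2.1e-05, 0.027 and 2.6e-05) but not in liver (adjusted p = 0.37). Libraries that stood apart were found in diaphragm, heart and liver. In diaphragm, the hepatocyte gene Alb, for albumin, ranged from 284 to 31876 CPM of the library total, against 90620 to 104093 CPM in WT liver, and 4 of the 7 libraries exceeded 10000 CPM. In heart, WT library 4 held 1826 CPM of the ventricular myosin light chain Myl2, against 6019 to 7233 CPM in the other WT libraries, and had the highest sum of the 4 atrial markers. In liver, Mtm1-/y library 2 had 54.2 CPM of the 10 macrophage markers, against 169 to 254 CPM in the other 6 libraries, 53.5 CPM of the 6 endothelial markers, against 111 to 133 CPM, and 114 CPM of the 10 skeletal muscle markers, against 7.92 to 45.7 CPM.

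Among the members, the largest differences in gastrocnemius were in the metallothioneins, of which Mt1 and Mt2 were chosen for this difference. Outside the members, the importer Slc39a8, named after its values were seen, had a log2 fold change of 2.66 (edgeR adjusted p = 0.0893). The directions within the zinc genes were mixed. Mt3 rose 9.84-fold in the group means, Mtf1 fell slightly, and Slc30a1 and Slc39a14 did not pass the test. Of the 4 members tested, 1 was called higher and 1 lower at an adjusted p under 0.05, where 14.1% and 14.9% of the 15456 genes tested were called higher and lower. Of all genes tested, 13.9% had every Mtm1-/y library above every WT library and 16.7% had every one below.

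Mt1 was at 37.9, 21.8, 24.5 and 54.1 CPM in the 4 WT gastrocnemius libraries and at 94.1, 81.7, 163 and 57.0 CPM in the 4 Mtm1-/y libraries. The groups did not overlap, although the lowest Mtm1-/y library lay only just above the highest WT library. The means were 34.6 ± 14.8 CPM for WT and 98.8 ± 45.2 CPM for Mtm1-/y (n = 4 and 4), a log2 fold change of 1.53 (SE 0.35). Mt2, its neighbour with an almost identical role, was at 29.3, 12.9, 23.5 and 40.4 CPM in WT and at 134, 170, 245 and 95.4 CPM in Mtm1-/y. Every Mtm1-/y library was above every WT library by a wide margin, and library 3 was highest for both genes. The Mt2 mean went from 26.5 ± 11.5 to 161 ± 63.6 CPM, a log2 fold change of 2.61 (SE 0.36). Mt1 and Mt2 were chosen for this difference, so these values are the description of the choice. RNA of whole muscle was measured here and in the other tissues, so that fewer cells of a type and less RNA per cell cannot be told apart.

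Mt3 was at 4.38, 1.96, 3.54 and 3.22 CPM in WT gastrocnemius and at 28.8, 58.4, 25.4 and 16.3 CPM in Mtm1-/y gastrocnemius. The 4 Mtm1-/y libraries all lay above the WT libraries, and the highest was library 2, not the library 3 that led for Mt1 and Mt2. The mean rose from 3.27 ± 1.00 to 32.2 ± 18.3 CPM, a log2 fold change of 3.29 (SE 0.39, edgeR adjusted p = 0.00047). Per kb of transcript, the only scale on which levels of different genes are compared here, Mt3 reached 60.1 CPM per kb in Mtm1-/y, against 180 for Mt1 and 315 for Mt2. Mt4 is not among the 6 genes and was picked out after its values were seen. It had 8, 36, 402 and 1 counts in the 4 Mtm1-/y gastrocnemius libraries and 0 in all 15 WT libraries of the 4 tissues. A count of 0 in the WT gastrocnemius libraries allows up to 0.0907 to 0.120 CPM, the level of 3 counts, for counting error only. Mt4 was dropped by the filter on low counts, and most of its counts lay in library 3. Because its values led to its choice, it is described with no test.

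Mtf1, which encodes the zinc-sensing factor itself, was at 29.1, 29.9, 30.7 and 28.9 CPM in WT and at 24.9, 26.6, 23.5 and 21.2 CPM in Mtm1-/y gastrocnemius. The groups did not overlap on this scale. The mean fell from 29.6 ± 0.786 to 24.1 ± 2.30 CPM, a log2 fold change of -0.29 (SE 0.078, edgeR adjusted p = 0.02). The direction rests on the scaling. With libraries scaled by their total alone, the median log2 fold change of all genes in gastrocnemius moved from 0.0155 to 0.351, and Mtf1 was at 0.047 (adjusted p = 0.67) with overlapping groups. The call was also lost without WT library 2, WT library 3 or Mtm1-/y library 3, with adjusted p from 0.051 to 0.052.

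Slc30a1 was at 17.4, 16.9, 20.3 and 18.6 CPM in WT gastrocnemius and at 21.3, 19.9, 40.5 and 22.3 CPM in Mtm1-/y gastrocnemius. Apart from library 3, which was also highest for Mt1 and Mt2, the Mtm1-/y values were close to the WT range, and the lowest fell within it. The log2 fold change was 0.52 (95% interval 0.046 to 0.99, edgeR adjusted p = 0.092), and without Mtm1-/y library 3 it was 0.23. It passed with scaling by library total (0.86, adjusted p = 0.011) and with a hepatocyte marker score as covariate (0.91, adjusted p = 0.013). Slc39a14 ran from 21.1 to 28.9 CPM in WT and from 23.5 to 49.1 CPM in Mtm1-/y, with library 3 again highest. Its log2 fold change was 0.39 (95% interval -0.058 to 0.83, adjusted p = 0.17) and passed only when Mtm1-/y library 4 was left out (0.54, adjusted p = 0.046) or with scaling by library total (0.73, adjusted p = 0.02) or with a hepatocyte marker score as covariate (0.82, adjusted p = 0.012).

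Markers of other cell types differed between the same libraries. The summed level of 10 macrophage markers, all detected in every library, was 46.2 to 85.0 CPM of the library total in WT gastrocnemius and 179 to 226 CPM in Mtm1-/y gastrocnemius, without overlap. The sum of 10 skeletal muscle markers was 227643 to 250672 CPM for WT and 171439 to 191142 CPM for Mtm1-/y. The sum of 12 white adipocyte markers overlapped, at 2816 to 3716 and 3069 to 3839 CPM, while Adipoq alone, for the adipocyte hormone adiponectin, was at 3.83 to 14.98 CPM in WT and at 15.2 to 23.6 CPM in Mtm1-/y. The same sum was 7948 to 8187 CPM in WT liver, where Adipoq was at 0 to 0.0968 CPM. This adipocyte list, and the score built from it here and in heart, thus does not measure fat alone. With the macrophage score as a covariate the Mt3 log2 fold change was 2.84 with an adjusted p of 1, in a fit that called 0 genes in all. The summed macrophage level did not overlap between the genotypes, so its part cannot be told apart from genotype. With the adipocyte score as a covariate Mt3 was at 3.88 (adjusted p = 0.012), Mt2 at 2.11 and Mt1 at 0.75, whereas Mtf1 no longer passed (-0.14, adjusted p = 0.53).

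**Figure D1:**
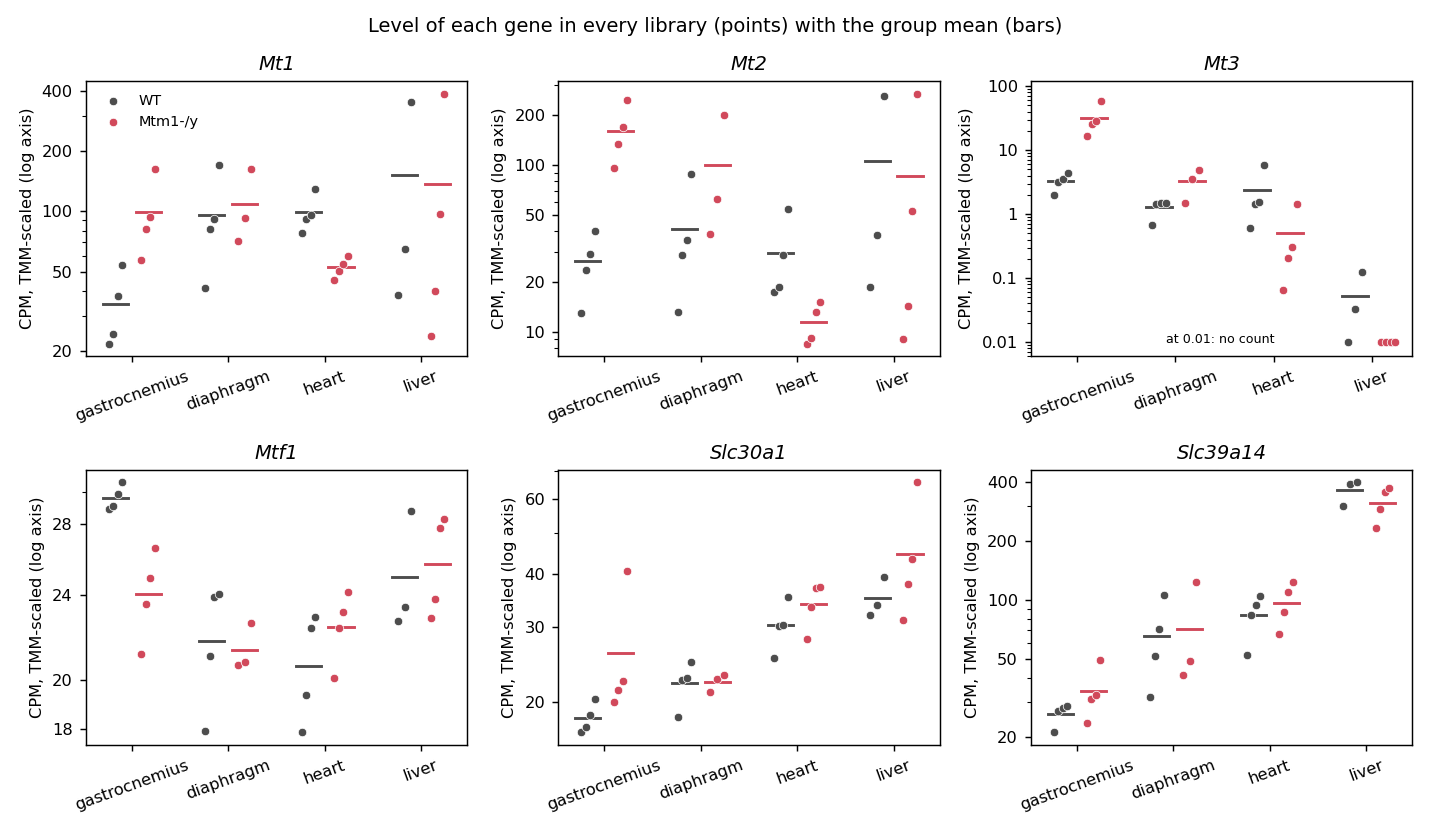
CPM after TMM scaling (log axis) of the 6 genes in each of the 30 libraries, by tissue and genotype, with each point 1 library and each bar a group mean. The 4 Mtm1-/y gastrocnemius libraries lie above the 4 WT libraries for Mt1, Mt2 and Mt3, and the Mtm1-/y heart libraries lie below the WT libraries for Mt1 and Mt2.

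In heart, Mt1 and Mt2 were lower in Mtm1-/y, opposite to gastrocnemius, and none of the 4 other members passed the test. The edgeR test called 0 of these 4, with 1 (Mt3) at an unadjusted p under 0.05, where 0.00656% of the 15238 genes tested were called and 8.88% had an unadjusted p under 0.05. DESeq2 and voom also called 0. Mt1 was at 91.9, 77.7, 96.1 and 130 CPM in WT and at 54.8, 60.0, 45.3 and 50.3 CPM in Mtm1-/y heart, without overlap. The means were 98.8 ± 21.97 CPM for WT and 52.6 ± 6.29 CPM for Mtm1-/y (n = 4 and 4), a log2 fold change of -0.92 (SE 0.16). Mt2 was at 18.6, 17.3, 28.9 and 54.4 CPM in WT and at 13.1, 9.20, 8.47 and 15.04 CPM in Mtm1-/y heart. These groups did not overlap either, and the WT spread was wide because library 4 lay far above the rest. The Mt2 log2 fold change was -1.39 (SE 0.37). Of all genes tested, 2.15% had no overlap with Mtm1-/y higher and 2.03% with Mtm1-/y lower.

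Mt3 was low in heart, at 1.42, 0.598, 1.53 and 5.86 CPM in WT and at 0.306, 1.42, 0.207 and 0.0645 CPM in Mtm1-/y. The groups overlapped, and the log2 fold change of -2.25 (SE 0.90) had an unadjusted p of 0.034 and an adjusted p of 0.55. Mtf1 was at 17.9 to 22.9 CPM in the WT hearts and 20.1 to 24.2 CPM in the Mtm1-/y hearts (log2 fold change 0.11, adjusted p = 0.65). Slc30a1 was at 25.4 to 35.3 and 28.02 to 37.3 CPM (0.16, adjusted p = 0.6), and Slc39a14 at 52.4 to 104 and 66.9 to 124 CPM (0.20, adjusted p = 0.73). The genotypes overlapped in heart for the exporter, the importer and the zinc-sensing factor, as they did for Mt3.

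Markers of atrial tissue and fat also varied between the heart libraries. The sum of the 4 atrial markers was 3881, 758, 4160 and 33413 CPM of the library total in WT libraries 1 to 4 and 155, 5857, 624 and 170 CPM in Mtm1-/y libraries 1 to 4. WT library 4 was highest for the atrial sum and for Mt1, Mt2 and Mt3, and Mtm1-/y library 2 was highest of its group for the atrial sum, Mt1 and Mt3 but not for Mt2, where libraries 1 and 4 were higher. Mtm1-/y library 3, next for the atrial sum, was lowest for Mt1. Adipoq was at 18.3, 5.89, 6.91 and 19.0 CPM in WT heart and at 2.72, 2.43, 1.42 and 2.45 CPM in Mtm1-/y heart, without overlap. The sum of the 12 adipocyte markers was 675 to 1002 CPM for WT and 612 to 709 CPM for Mtm1-/y. Without WT library 4 the log2 fold change was -0.75 for Mt1, -0.92 for Mt2 and -1.25 for Mt3. With the atrial score as a covariate it was -0.60, -0.87 and -0.44, and with the adipocyte score -0.31, -0.28 and 0.84. With the adipocyte score in the fit, Mt1 went from -0.92 to -0.31 and Mt2 from -1.39 to -0.28, and Mt3 changed sign. Adipoq did not overlap between the genotypes, whereas the sum of the 12 markers did, and this list does not measure fat alone. By Adipoq, the part of fat in these values cannot be told apart from genotype. It was not tested.

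In diaphragm, the other skeletal muscle, no member passed the test. The edgeR test called 0 of 6, with 1 (Mt3) at an unadjusted p under 0.05, where 0.0119% of the 16796 genes tested were called and 10.8% had an unadjusted p under 0.05. DESeq2 and voom also called 0 of the 6. All 6 overlapped between the genotypes, where 4.41% of all genes did not overlap and were higher and 5.54% were lower. Mt1 was at 81.6, 41.6, 91.5 and 170 CPM in the WT libraries and at 163, 92.8 and 70.9 CPM in the Mtm1-/y libraries, which are numbered 1, 2 and 4. The Mtm1-/y values lay inside the WT range, and the log2 fold change was 0.19 (95% interval -0.95 to 1.34, adjusted p = 0.96). Mt2 was at 28.7, 13.1, 35.7 and 88.2 CPM in WT and at 199, 38.3 and 62.2 CPM in Mtm1-/y. Library 1 exceeded every WT library and the other two lay within the WT range. The Mt2 log2 fold change was 1.28 (95% interval -0.50 to 3.05, adjusted p = 0.63), and without Mtm1-/y library 1 it was 0.31. Mt3 was at 1.43, 0.666, 1.51 and 1.51 CPM in WT and at 4.81, 1.46 and 3.58 CPM in Mtm1-/y. Libraries 1 and 4 were above every WT library and library 2 was not, with a log2 fold change of 1.38 (SE 0.45, unadjusted p = 0.018, adjusted p = 0.36). Mtf1 was at 21.7 ± 2.92 CPM for WT and 21.3 ± 1.11 CPM for Mtm1-/y (n = 4 and 3, adjusted p = 1), and Slc30a1 at 22.1 ± 2.68 and 22.2 ± 1.01 CPM (adjusted p = 0.97).

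Slc39a14 was highest in the diaphragm libraries richest in Alb, but the order was not the same throughout. In CPM of the library total it was at 125, 56.3, 36.1 and 85.1 in WT and at 60.9, 139 and 50.3 in Mtm1-/y, where Alb was at 26742, 16855, 284 and 19826 CPM and at 1816, 31876 and 583 CPM. The library richest in Alb was the highest for Slc39a14 and the WT library poorest in Alb was the lowest. Mtm1-/y library 1, with 1816 CPM of Alb, lay above WT library 2, with 16855 CPM of Alb. Taking Alb as the share of liver RNA, WT liver would contribute 80.0, 50.4, 0.848 and 59.3 CPM of Slc39a14 to the WT libraries and 5.43, 95.3 and 1.74 CPM to the Mtm1-/y libraries. In the libraries under 10000 CPM of Alb the measured Slc39a14 was far above this share. For Mt2 the same share came to 22.6, 14.2, 0.239 and 16.7 CPM in WT and 1.53, 26.9 and 0.492 CPM in Mtm1-/y. This Mt2 share depends on WT liver library 3, at 199 CPM of the library total against 15.2 and 31.0 CPM in the other WT livers. Without that library the share would be much smaller. The measured Mt2 was 33.7, 14.2, 40.3 and 106 CPM in WT and 249, 43.2 and 75.5 CPM in Mtm1-/y. The Mtm1-/y library with the highest Mt2 held 1816 CPM of Alb. The part of liver RNA in the Slc39a14 and Mt2 values was not tested. Without the 4 libraries over 10000 CPM of Alb, which leaves 1 WT library assumed to vary like the Mtm1-/y ones, the log2 fold change was 0.35 for Mt1, 1.86 for Mt2 (adjusted p = 0.64), 1.47 for Mt3 (adjusted p = 0.6) and 0.49 for Slc39a14 (adjusted p = 0.62).

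**Figure D2:**
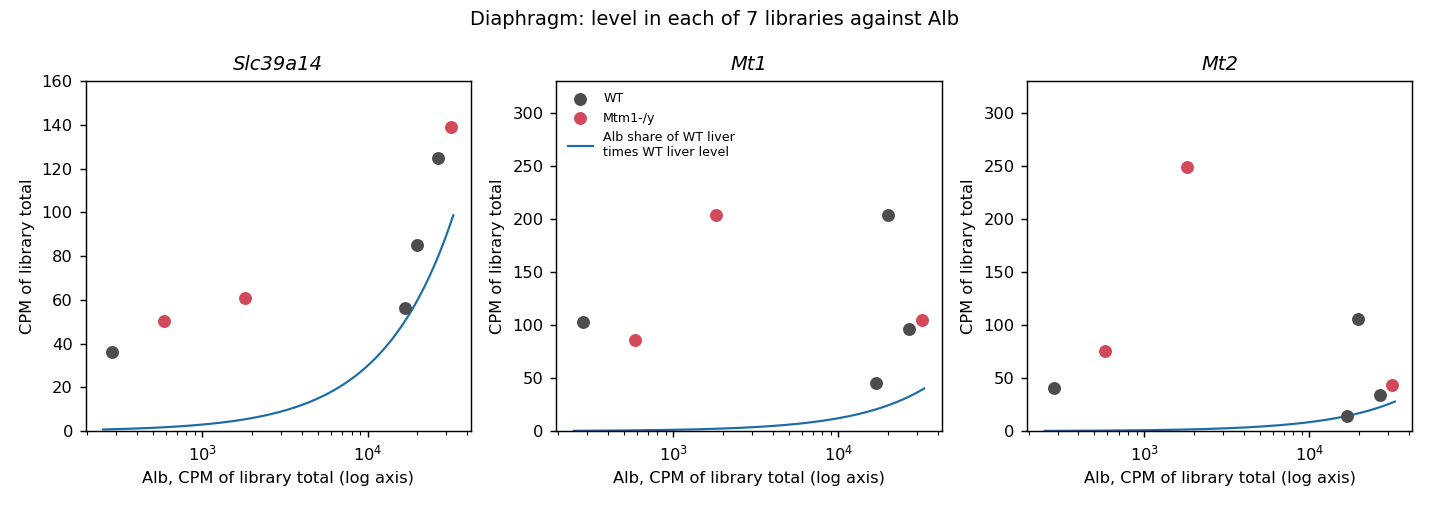
Slc39a14, Mt1 and Mt2 in CPM of the library total against Alb (log axis) in the 7 diaphragm libraries, with a line for the level that the same Alb share of WT liver RNA would give. Slc39a14 is highest, at 139 CPM, in the library with the most Alb, whereas Mt2 is highest, at 249 CPM, in a library with 1816 CPM of Alb. For Mt1 and Mt2 the WT liver level behind the line rests mostly on WT liver library 3.

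In liver, the spread of Mt1 and Mt2 within each genotype was larger than any difference between genotypes. The edgeR test called 0 of the 5 members tested, with 0 at an unadjusted p under 0.05, where 0% of the 14305 genes tested were called and 4.24% had an unadjusted p under 0.05. DESeq2 and voom also called 0. All 5 overlapped, where 2.22% of all genes did not overlap and were higher and 3.33% were lower. Mt1 was at 38.05, 65.1 and 351 CPM in WT liver and at 40.02, 386, 96.6 and 23.9 CPM in Mtm1-/y liver. Mt2 was at 18.6, 38.05 and 260 CPM in WT and at 14.2, 268, 52.9 and 8.997 CPM in Mtm1-/y. In each genotype 1 library, WT 3 and Mtm1-/y 2, was far above the others for both genes, and the remaining libraries of the genotypes overlapped. The log2 fold change was -0.15 for Mt1 (95% interval -2.46 to 2.168, adjusted p = 0.99) and -0.29 for Mt2 (95% interval -3.05 to 2.47, adjusted p = 0.98). The Mt1 interval includes the 1.53 of gastrocnemius, and the upper bound for Mt2 lies just below the 2.61 of gastrocnemius. Without WT library 3 these were 1.39 and 1.59, and without Mtm1-/y library 2 they were -1.51 and -2.07. Mt3 had 1, 3 and 0 counts in WT and 0 in the 4 Mtm1-/y livers and was not tested. Slc30a1 was at 32.003, 33.7 and 39.4 CPM in WT and at 43.4, 65.8, 31.2 and 37.9 CPM in the Mtm1-/y livers (log2 fold change 0.34, adjusted p = 0.97), and its highest library was the Mtm1-/y library 2 that was also highest for Mt1 and Mt2. This is the library with few macrophage and endothelial markers, and their part in its values was not tested. Mtf1 was at 25.0 ± 3.34 CPM for WT and 25.7 ± 2.76 CPM for Mtm1-/y (n = 3 and 4, adjusted p = 0.98). Slc39a14, at its most abundant here, was at 363 ± 54.0 and 313 ± 63.6 CPM (log2 fold change -0.22, adjusted p = 0.97).

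**Figure D3:**
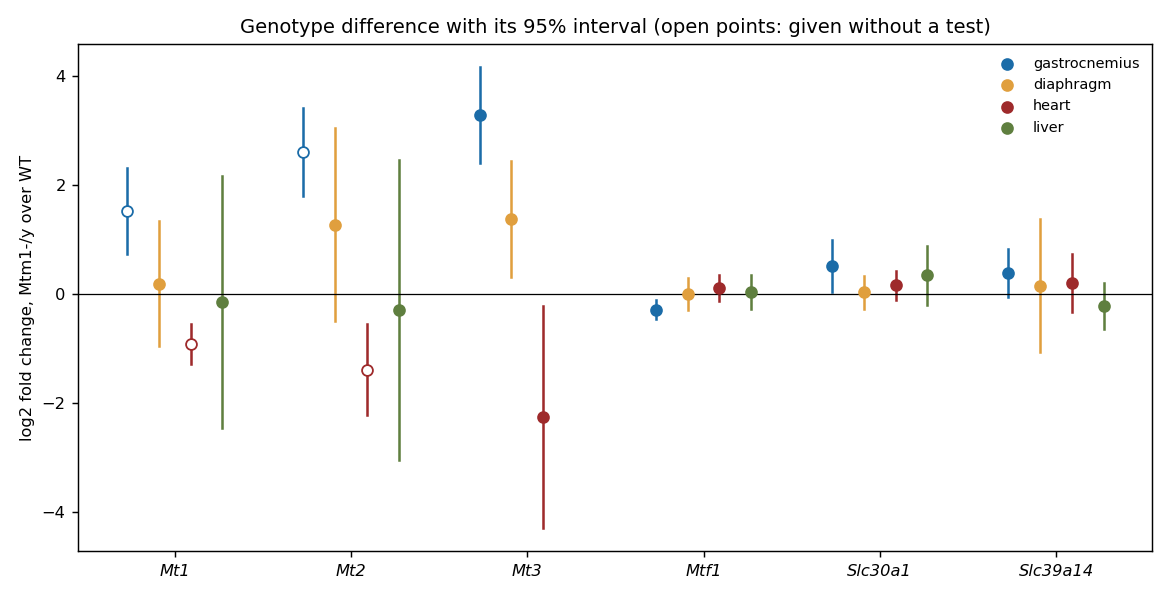
log2 fold change of Mtm1-/y over WT with its 95% interval for the 6 genes in each tissue, with open points for values given without a test and no point for Mt3 in liver. Mt3 in gastrocnemius lies at 3.29 and Mtf1 in gastrocnemius at -0.29, the tested values that passed, while the liver intervals of Mt1 and Mt2 run from below -2 to above 2.

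The genotype differences were then compared between tissues by an interaction term. Of the tested values, 2 passed, both between heart and gastrocnemius, a contrast in which 19.8% of all genes tested were called. The Mt3 difference in heart minus that in gastrocnemius was -5.54 (SE 0.98, edgeR adjusted p = 0.0017). For Mtf1 it was 0.42 (SE 0.13, adjusted p = 0.03). Leaving out 1 library took this call away in 7 of 16 fits, with adjusted p from 0.052 to 0.07, and scaling by library total left a difference of 0.014 (adjusted p = 0.95). The same contrast was -2.43 (SE 0.43) for Mt1 and -3.98 (SE 0.57) for Mt2, both given without a test because they use the gastrocnemius values that chose both genes. Mt3 did not pass between diaphragm and gastrocnemius (-1.91, adjusted p = 0.25), where 0.28% of all genes were called, or between liver and gastrocnemius (-6.98, adjusted p = 0.15), where 6.34% were called. DESeq2 called the latter (-6.08, adjusted p = 0.00041), in a contrast where all 4 Mtm1-/y livers were at 0 counts, so that the size of either value is no bound. Between liver and diaphragm, where 0% of all genes were called, Mt1 was at -0.31 (adjusted p = 1) and Mt2 at -1.55 (adjusted p = 0.99). Heart against diaphragm and liver against heart, where 0.00573% and 0% of all genes were called, gave no call among the members tested. These contrasts share libraries and are not independent of each other.

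The ratio of Mt2 to Mt1 is built from the values that chose these genes in gastrocnemius and heart and is described with no test. Per kb of transcript, the ratio of Mt2 to Mt1 had a median of 0.817 in WT gastrocnemius, with a range of 0.634 to 1.03. In Mtm1-/y gastrocnemius the median was 1.71 and the range 1.53 to 2.23, so that Mt2 exceeded Mt1 in all 4 libraries. In heart Mt1 exceeded Mt2 in every library, with ratios of 0.218 to 0.451 in WT and 0.165 to 0.321 in Mtm1-/y. In diaphragm the ratio was 0.338 to 0.558 in WT and 0.444, 0.942 and 1.31 at the lowest, median and highest in Mtm1-/y. In liver it was 0.527 to 0.794 in WT and 0.382 to 0.746 in Mtm1-/y, although the summed level varied widely between these libraries. An antisense gene, Gm45774, overlaps 432 of the 588 exonic bases of Mt2. It had 0 to 67 counts per library, and whether counting used strand is not given in the sources used here, so Mt2 reads there may be uncertain. Apart from Gm45774, Mt2 shares no 50-base stretch with another gene, and Mt1 and Mt3 share none. Neighbouring genes that overlap them share 7.55% of the 50-base stretches of Mtf1 and 8.01% of those of Slc30a1.

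**Figure D4:**
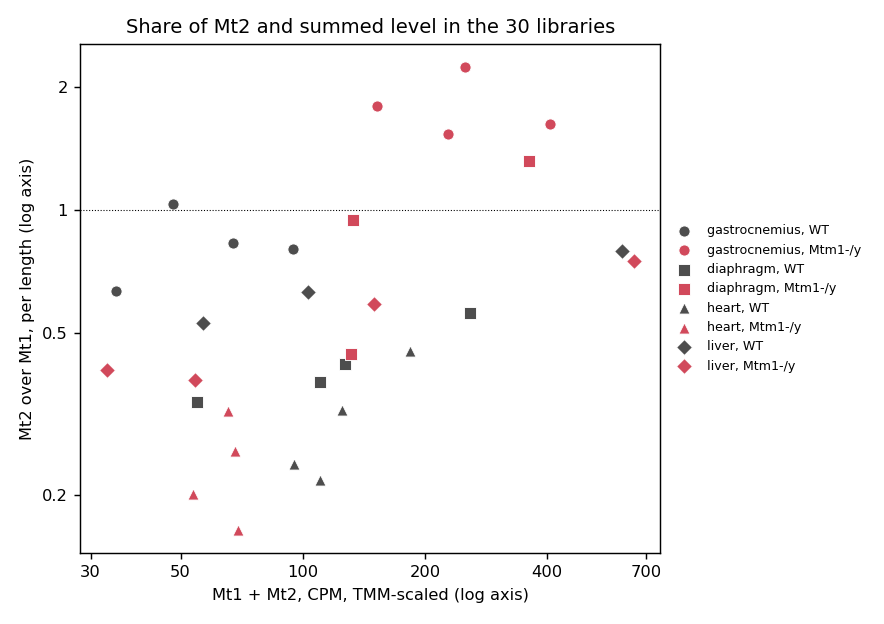
Ratio of Mt2 to Mt1 per kb of transcript (log axis) against the summed CPM of both genes after TMM scaling (log axis) in the 30 libraries, by tissue and genotype. The 4 Mtm1-/y gastrocnemius libraries sit between 1.53 and 2.23, above the WT gastrocnemius libraries at 0.634 to 1.03, and the heart libraries lie lowest.

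Levels of the members in WT mice were ordered differently by gene. Slc39a14 rose from muscle to liver, with a mean of 26.3 CPM in gastrocnemius, 65.3 in diaphragm, 83.6 in heart and 363 in liver. All of its pairwise differences passed except heart against diaphragm (log2 difference 0.34, edgeR adjusted p = 0.36), and liver exceeded gastrocnemius by 3.71 (adjusted p = 1.9e-07), where 79.5% of the 17725 genes tested were called. The share called was 54.4% for diaphragm against gastrocnemius, 61.3% for heart against gastrocnemius, 51.7% for heart against diaphragm, 76.1% for liver against diaphragm and 76.4% for liver against heart. Without the 3 WT diaphragm libraries over 10000 CPM of Alb, 1 diaphragm library remained and was assumed to vary like the other groups. Diaphragm minus gastrocnemius was then 0.29 for Slc39a14 (adjusted p = 0.53) and heart minus diaphragm 1.36 (adjusted p = 0.0092).

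Slc30a1 ran in the same order, from 18.3 CPM in gastrocnemius through 22.1 in diaphragm and 30.2 in heart to 35.1 in liver. Its neighbouring steps passed only between diaphragm and heart (log2 difference 0.45, adjusted p = 0.0048), not between gastrocnemius and diaphragm (0.24, adjusted p = 0.091) or heart and liver (0.17, adjusted p = 0.21), and heart lay above liver under library-total scaling (-0.38 for liver minus heart, adjusted p = 0.015). Mtf1 was highest in gastrocnemius at 29.6 CPM, against 21.7 in diaphragm, 20.6 in heart and 25.0 in liver. The gastrocnemius level exceeded the other three (log2 differences of -0.48, -0.56 and -0.32, adjusted p = 0.0021, 0.00052 and 0.023), and under library-total scaling the diaphragm and heart differences turned to 0.037 and 0.032.

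Mt3 was at 3.27 CPM in WT gastrocnemius, 2.35 in heart and 1.28 in diaphragm and was nearly undetected in liver, with a liver-minus-gastrocnemius difference of -5.93 (adjusted p = 6.6e-05). The diaphragm level was below gastrocnemius (-1.40, adjusted p = 0.049), a call lost in 12 of the 15 fits that left out 1 library (adjusted p from 0.052 to 0.12). Heart did not differ beyond the spread from gastrocnemius (-0.51, adjusted p = 0.44) unless WT heart library 4 was left out (-1.497, adjusted p = 0.0078). WT means of Mt1 were 34.6 CPM in gastrocnemius, 96.1 in diaphragm and 98.8 in heart, and those of Mt2 26.5, 41.4 and 29.8 CPM. For Mt2, heart minus gastrocnemius was 0.13 (SE 0.73) and turned to -0.32 without WT heart library 4 and to -0.096 without WT gastrocnemius library 2. The liver means of 152 and 105 CPM rested on 1 library. The liver-minus-diaphragm difference was 0.60 for Mt1 (adjusted p = 0.39) and 1.29 for Mt2 (adjusted p = 0.15), and it was -0.94 and -0.59 without WT liver library 3. Per kb of transcript the WT means of Mt1 were 63.0, 175, 180 and 276 CPM per kb in gastrocnemius, diaphragm, heart and liver, those of Slc30a1 3.49 to 6.68 and those of Mtf1 2.70 to 3.88.

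The other zinc transporters moved in both directions. The lists held 24 genes, 10 exporters of the Slc30a family and 14 importers of the Slc39a family, including the 2 members. In gastrocnemius 19 were tested, of which 2 rose and 3 fell, or 26.3% called against 29% of all genes, with a median log2 fold change of 0.0387 against 0.0155 for all genes. With libraries scaled by total alone 12 rose and 2 fell, so that 85.7% of the calls were higher against 40% with TMM, while among all genes the share rose from 48.5% to 92.2%. Slc30a2, which loads zinc into secretory vesicles, fell from 42.5 ± 6.73 to 16.5 ± 5.67 CPM (log2 fold change -1.35, edgeR adjusted p = 0.00217) and kept a negative sign that passed with library-total scaling. Slc30a9, a mitochondrial zinc transporter, fell from 138 to 98.7 CPM (-0.47, adjusted p = 0.000621), although with library-total scaling it was at -0.13 (adjusted p = 0.0607). Slc39a12 was detected at under 1 CPM and fell from 0.858 to 0.240 CPM (-1.80, adjusted p = 0.00138). The importers Slc39a6 and Slc39a11 rose, by 0.96 (5.27 to 10.2 CPM, adjusted p = 0.0402) and by 0.41 (3.37 to 4.43 CPM, adjusted p = 0.0498). Slc39a6 was not called by voom or when any 1 of the 4 WT libraries was left out. Slc39a11 was not called by DESeq2, with its size factors, with no filter or in the fit of all libraries, nor in 6 of the 8 fits that left out 1 library. With the adipocyte score as a covariate the 1 transporter called was Slc30a9, and with the macrophage score 0 were called.

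None of the zinc transporters passed the edgeR test in the other tissues. At an unadjusted p under 0.05 there were 3 of 21 in diaphragm, 2 of 19 in heart and 0 of 21 in liver, where 10.8%, 8.88% and 4.24% of all genes had such a p. DESeq2 called 1 in diaphragm, Slc30a2, among 440 genes in all, and 0 in heart and liver. In diaphragm Slc30a2 was at 11.3 CPM for WT and 5.27 CPM for Mtm1-/y (log2 fold change -1.08, edgeR adjusted p = 0.264), the same sign as in gastrocnemius. Slc30a9 was at 110 and 93.0 CPM in diaphragm, 137 and 148 CPM in heart and 94.8 and 101 CPM in liver. Slc39a4, the importer of dietary zinc, was at 145 and 146 CPM in liver.

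**Figure D5:**
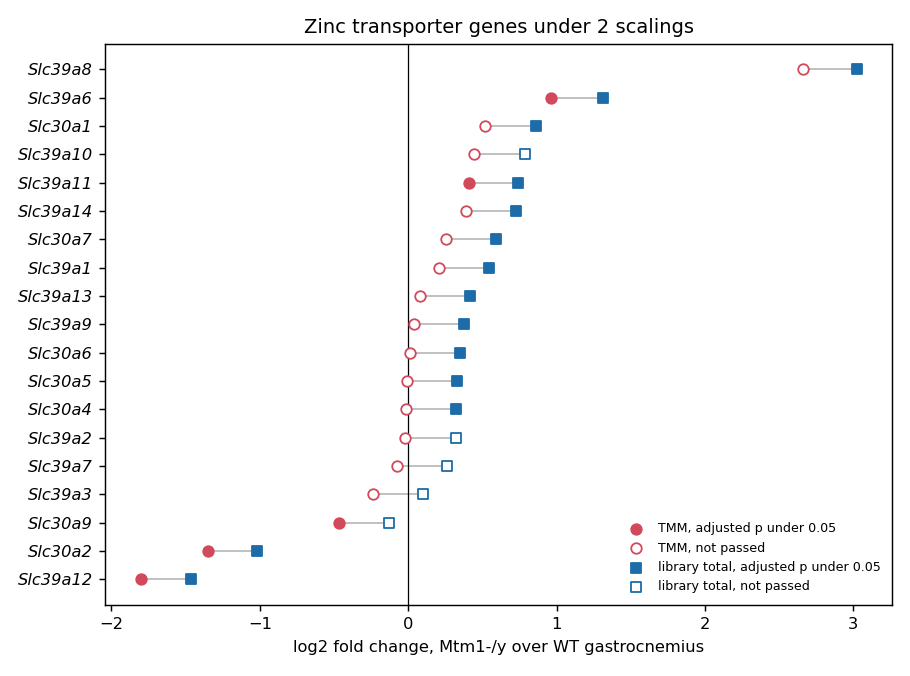
log2 fold change of Mtm1-/y over WT gastrocnemius for the 19 zinc transporter genes tested, with TMM scaling (circles) and with scaling by library total (squares), filled where the adjusted p was under 0.05. Scaling by library total moves every gene to the right, and Slc30a2 and Slc39a12 pass as lower under both.

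Other lists tied to metallothionein induction were counted in gastrocnemius in the same fit, where 29% of all genes were called in either direction. Of 9 targets of MTF-1, 2 were higher, and these were Mt1 and Mt2, which were chosen for it. Of 10 glucocorticoid-responsive genes, 0 rose and 1 fell, the transcription factor Klf9 (267 to 193 CPM, log2 fold change -0.45, adjusted p = 0.0111). This list had a median log2 fold change of -0.279, against 0.0155 for all genes. Its median was also negative in diaphragm, heart and liver, at -0.111, -0.250 and -0.389. Of 9 genes of IL-6 family signalling, 4 rose and 1 fell. The transcription factor Junb rose from 3.13 to 21.1 CPM (2.77, adjusted p = 0.00181), the NF-kappaB cofactor Bcl3 from 0.661 to 2.86 CPM (2.11, adjusted p = 0.00121) and the signal transducer Stat3 from 89.3 to 144 CPM (0.70, adjusted p = 0.00217). The feedback inhibitor Socs3, the remaining gene that rose, was named after its values were seen (1.88, adjusted p = 0.0311). The receptor gene Lifr fell from 123 to 67.5 CPM (-0.86, adjusted p = 0.00658).

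Of 10 genes of the NRF2 oxidative stress response, 3 rose and 0 fell. These were sulfiredoxin Srxn1 (27.6 to 65.2 CPM, log2 fold change 1.25, edgeR adjusted p = 0.0034), haem oxygenase Hmox1 (7.20 to 13.6 CPM, 0.93, adjusted p = 0.00409) and Nfe2l2, which encodes NRF2 itself (43.3 to 57.3 CPM, 0.42, adjusted p = 0.016). Of 11 copper-handling genes only the copper chaperone Atox1 passed, rising from 21.05 to 25.1 CPM (0.26, adjusted p = 0.0191). In diaphragm, heart and liver 0 genes of these lists passed the edgeR test, where 0.0119%, 0.00656% and 0% of all genes were called. At an unadjusted p under 0.05 there were 0 to 2 genes of each list in diaphragm, 0 to 3 in heart and 0 to 2 in liver. The highest counts were 3 of 10 glucocorticoid-responsive genes and 3 of 9 genes of IL-6 family signalling, both in heart. Of all genes, 10.8%, 8.88% and 4.24% had such a p in the 3 tissues. With library-total scaling the 66 pathway genes tested in gastrocnemius gave 35 higher and 3 lower calls against 13 higher and 5 lower with TMM, so shares of higher calls of 92.1% and 72.2%. The higher calls include Mt1 and Mt2, whose values chose them, so nothing is read from these shares.

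Genes with the pattern most like Mt1 and Mt2 were sought from the deviations of each library from its tissue and genotype mean, which do not hold the genotype difference. Over 30 libraries and 10946 genes, the gene most like Mt1 was Mt2, with a Pearson r of 0.956, and 0.868 over the 23 libraries without liver. By tissue this r was 0.911 in gastrocnemius, 0.920 in diaphragm, 0.758 in heart and 0.998 in liver. The next for Mt1 were Terf1, a telomere-binding protein (0.801), Aprt, an enzyme of adenine salvage (0.793), Nnmt, nicotinamide N-methyltransferase (0.759), and F3, tissue factor (0.758). Without liver these fell to 0.679, 0.541, 0.603 and 0.392. For Mt2 the next were Rasa3 (0.766), Armc10 (0.759), Sulf2 (0.759) and F3 (0.754), at 0.475, 0.569, 0.513 and 0.434 without liver. Among the members, Slc30a1 had an r of 0.503 with Mt1, Mtf1 one of -0.496 and Slc39a14 one of 0.0118. Within tissues the signs differed, with Slc30a1 at 0.584 in gastrocnemius, 0.654 in diaphragm, -0.782 in heart and 0.663 in liver, and Slc39a14 at 0.802, 0.0838, -0.675 and -0.298. Mtf1 was at 0.0550, -0.519, -0.379 and -0.789. The libraries share tissue, depth and the liver pair with very high Mt1 and Mt2, so these values describe likeness in these libraries alone.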

How the data were processed

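Total RNA of whole tissue was made into stranded mRNA libraries and sequenced by the authors as single-end reads. Per the labels and the study's methods, the authors trimmed reads with cutadapt 1.10, aligned them with STAR 2.5.3a to the mm10 genome, and counted unique, non-ambiguous reads per Ensembl gene in union mode with HTSeq 0.6.1p1, and they deposited raw counts per gene. Reads that fit 2 genes were thus dropped, which lowers genes that overlap another. The submitters' processing notes also name bcl2fastq 2.17.1.14. All columns were matched to a sample by title, and 0 columns were left unused. The table gives 20 symbols to more than 1 gene, and 84 genes have no count in any library.

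Each tissue was tested alone by edgeR 4.0.16 (R 4.3.3, limma 3.58.1) with the quasi-likelihood test, TMM scaling, the filterByExpr filter with a minimum count of 10 and Benjamini-Hochberg adjustment over all genes tested, at a threshold of 0.05. WT tissues were compared in 1 fit of the 15 WT libraries, and differences between genotype effects by an interaction term in the libraries of both tissues. The scripts were tested on simulated counts. Alternatives were DESeq2 1.42.0, voom, other scalings, no filter, 1 fit of all 30 libraries, marker scores as covariates, a replicate block and leaving out each library. Levels of different genes were compared per kb with the length of the longest principal transcript (GENCODE M21). Likeness used log2 CPM with a prior count of 2 and genes of at least 1 CPM in each tissue. Promoter windows are RefSeq's on mm10, and 6 of the 7 genes looked up matched.

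The genes named are the 6 members, Mtm1, up to 4 called genes of each pathway list and tissue by smallest p or else the 2 most abundant, the 5 genes most like Mt1 and the 5 most like Mt2, and defining markers that move with a result. Mt4, Socs3 and Slc39a8 were named after their values were seen. The members and lists were chosen with earlier results of these data known. Marker and pathway lists are textbook lists. Same-numbered WT and Mtm1-/y libraries did not deviate together in every pair of any tissue (r from -0.110 to 0.110 in gastrocnemius, -0.609 to 0.331 in diaphragm, -0.478 to 0.359 in heart and -0.0230 to 0.398 in liver), so the numbers were not used as pairs. Across WT tissues the median r was higher for same-numbered libraries in every pair of tissues (heart and diaphragm 0.191 against -0.121). Across Mtm1-/y tissues it was lower for heart with gastrocnemius (-0.172 against 0.0709) and liver with gastrocnemius, and higher otherwise. Whether a number marks 1 animal across tissues was not tested, and fits over several tissues took all libraries as separate. Libraries of a group are taken as separate animals from the study's methods, and the labels give no animal, so p-values measure the spread between these libraries.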

Additional observations from a re-analysis of the deposited data

Results flagged for a closer look

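In 3 of 35 groups of 4 libraries the gap of 1 library to the next exceeded Dixon's 95% critical value, where chance gives about 1 in 20. Mt2 was at 268 CPM in Mtm1-/y liver library 2, against 8.997 to 52.9 CPM in the other 3. Slc30a1 was at 40.5 CPM in Mtm1-/y gastrocnemius library 3, against 19.9 to 22.3 CPM. Mt3 was at 0.666 CPM in WT diaphragm library 2, below 1.43 to 1.51 CPM in the others, a difference of few reads.

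The genotype difference in heart minus that in gastrocnemius passed the interaction test for Mt3 (-5.54, edgeR adjusted p = 0.0017) and for Mtf1 (0.42, adjusted p = 0.03). For Mt1 (-2.43) and Mt2 (-3.98) every Mtm1-/y library was higher in gastrocnemius and lower in heart than every WT library, and this difference was not tested because it uses the gastrocnemius values that chose both genes.

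Mt4, outside the 6 genes, reached 402 counts in Mtm1-/y gastrocnemius library 3, which also had the highest Mt1, Mt2, Slc30a1 and Slc39a14 of its group, while all 15 WT libraries were at 0.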

How the results depend on the processing

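Of the results tested, Mt3 in gastrocnemius kept its call under every alternative run except the macrophage score as covariate. Library-total scaling and the fits without Alb-rich diaphragm libraries were added after seeing the data, and no cause was tested for any value below. In liver and diaphragm the spread between libraries limits Mt1 and Mt2, whose intervals there span over 2 log2 units, and Mt3 in heart and liver and Mt4 rest on few reads.

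In gastrocnemius, the fold threshold of the study (absolute log2 fold change over 1) left 1 member (Mt3, with Mtf1 at -0.29) and 2 transporters. Library-total scaling gave Slc39a14 0.73, Mtf1 0.047, Slc30a1 0.86 and 14 transporters. The hepatocyte covariate gave Slc39a14 0.82, Mtf1 -0.25, Slc30a1 0.91 and 10 transporters. The adipocyte covariate gave Mtf1 -0.14, Mt1 0.75, 1 member and 1 transporter. The macrophage covariate gave Slc39a14 -0.55, Mtf1 -0.49, Mt3 2.84, Slc30a1 -0.14, 0 members and 0 transporters. In diaphragm, Mtf1 was at 0.012 with DESeq2 size factors and with DESeq2, 0.013 with no filter, 0.068 with voom and 0.044 by library total, Slc39a14 at -0.33 with voom, and Slc30a1 at -0.043 without the Alb-rich libraries. DESeq2, the hepatocyte covariate and the fit of all libraries each called 1 transporter there, and all genes called were 2 in the tissue's own fit against 440 by DESeq2, 274 in the fit of all libraries, 38 with the hepatocyte covariate and 9 by voom. In heart, the hepatocyte covariate gave Slc39a14 -0.0083 and Mtf1 -0.043, the adipocyte covariate Mt3 0.84, Mt2 -0.28, Mt1 -0.31 and Slc30a1 -0.082, and the atrial covariate Slc39a14 -0.25, Mt1 -0.60 and Slc30a1 -0.089. In liver, Mtf1 was at -0.0041 by library total and Slc39a14 at 0.037 with the cardiomyocyte covariate.

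Between WT tissues, library-total scaling gave Mtf1 0.037 (diaphragm minus gastrocnemius), 0.032 (heart minus gastrocnemius), -0.31 (liver minus diaphragm) and -0.31 (liver minus heart), Mt3 0.11 (heart minus gastrocnemius), and Mt1 -0.026 and Slc30a1 -0.38 (liver minus heart). Without the Alb-rich libraries Mtf1 was at -0.0020 for liver minus diaphragm. For differences of genotype effects, no filter and the fit of all libraries each left 1 call, and library-total scaling gave Mtf1 -0.0020 (diaphragm minus gastrocnemius), -0.051 (liver minus gastrocnemius) and -0.048 (liver minus diaphragm).

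With the replicate number as a block, Slc30a1 in gastrocnemius passed at 0.47 (adjusted p = 0.048) and 3 members were called against 2, while all genes called there were 4018 against 4479. The block gave Slc39a14 -0.22 and Mtf1 0.062 in diaphragm with 0 genes called in all, and Mtf1 -0.0039 and Mt1 0.23 in liver. The numbers are not known to pair the samples, so these are not read as paired results.

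Leaving out each library in turn gave these ranges. In gastrocnemius Slc39a14 ran from 0.17 to 0.54, Mtf1 from -0.33 to -0.22, members called from 1 to 3 and transporters from 3 to 8. In diaphragm Slc39a14 ran from -0.53 to 0.49, Mtf1 from -0.086 to 0.071, Mt1 from -0.20 to 0.62, Slc30a1 from -0.045 to 0.091 and transporters from 0 to 1, and all genes called from 0 to 162, the highest without Mtm1-/y library 2. In liver Mtf1 ran from -0.028 to 0.16, Mt2 from -2.07 to 1.59 and Mt1 from -1.51 to 1.39. In WT, heart minus gastrocnemius ran from -0.32 to 0.40 for Mt2, and heart minus diaphragm from -0.17 to 1.21 for Mt3, -1.01 to 0.15 for Mt2 and -0.22 to 0.41 for Mt1. Liver minus diaphragm ran from -0.59 to 1.92 for Mt2 and -0.94 to 1.06 for Mt1, and liver minus heart from -0.11 to 2.27 and -0.97 to 1.03. Among differences of effects, Slc39a14 ran from -0.92 to 0.084 (diaphragm minus gastrocnemius), -0.35 to 0.051 (heart minus gastrocnemius), -0.28 to 0.75 (heart minus diaphragm) and -0.67 to 0.35 (liver minus diaphragm). Slc30a1 ran from -0.39 to 0.14 (liver minus gastrocnemius) and -0.064 to 0.32 (liver minus heart), and Mtf1 from -0.14 to 0.039 (liver minus heart). Mt2 and Mt1 ran from -3.30 to 0.34 and -1.66 to 1.23 (liver minus diaphragm) and from -0.67 to 2.98 and -0.58 to 2.31 (liver minus heart). Of the genes most like Mt1 and Mt2, Spearman's rho kept 4 of 5 and 1 of 5, and a prior count of 0.5 kept 5 and 5.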
